A study of Mus musculus with 3 samples.

Results

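The genes that copy the genome were followed as a set of 38 members through single cells of the mouse fetal ovary. The members were listed by name for their roles in DNA replication and S phase and stood among 18738 genes in the 3 count tables. All 38 were present in the tables, and all 38 passed the filter on low counts in every comparison below. A second list of 40 other replication genes, which holds no member, was used to find replicating cells.

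The study prepared lots of fetal ovarian somatic cells (FOSCs), the support cells among which germ cells can be cultured. Each of the 3 lots (26, 29 and 30) pooled ovaries at E12.5 (day of embryonic development) from 10 pregnant CD1 females, with the mesonephros cut away and the tissue dissociated with trypsin. Germ and endothelial cells were depleted with magnetic beads against SSEA1 and CD31, and the cells were frozen, thawed and captured with the 10X Genomics 3' v3 chemistry. All lots had the same strain, age and handling, so they are replicates of 1 condition and the comparisons below are between cell classes within them. The germ and endothelial cells in these data are those left after depletion.

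DNA replication begins when the MCM helicase is loaded at origins with the help of Cdc6 and is switched on by Cdc45 and the GINS complex. Polymerases then copy both strands behind the fork with a sliding clamp (Pcna), its loader (Rfc2 is a subunit) and a single-strand binding complex (Rpa2 is a subunit), while ribonucleotide reductase and thymidylate synthase supply nucleotides and histone chaperones rebuild chromatin. E2F transcription factors drive many of these genes at the start of S phase. In the female mouse gonad, germ cells leave mitosis and pass through a last S phase before meiosis, whereas many pre-granulosa cells have left the cell cycle.

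The promoters were searched for the letters of the E2F element, since E2F factors are known regulators of this family. RefSeq promoter windows of 300 bases around the gene start (GRCm38.p6) were matched for 28 members with 30 windows. An E2F element (TTTCGCGC, TTTGGCGC, TTTCCCGC or TTTGCCGC on either strand) was found in 11 of these 30 windows (36.67%) and in 2.26% of all 32851 windows. The letters CCAAT on either strand stood in 63.33% of the members' windows and 37.41% of all windows. The CHR letters TTTGAA, known from promoters of G2/M genes, stood in 6 of the 30 windows and in 17.89% of all. A match is a description of the letters and was not tested as a binding site. The 4 windows shown, 5′ to 3′ on the gene's strand with the E2F element in capitals, belong to Hells and Cdca7, a chromatin remodeller and its partner that differed in opposite directions in germ-like cells, and to Cdc6 and Clspn, which were among the members with the largest differences between somatic classes. The element began at position -62 in Hells, -71 in Cdca7, -138 in Cdc6 and 21 in Clspn, counted from the RefSeq gene start.
Hells (chr19:38930740-38931039, + strand): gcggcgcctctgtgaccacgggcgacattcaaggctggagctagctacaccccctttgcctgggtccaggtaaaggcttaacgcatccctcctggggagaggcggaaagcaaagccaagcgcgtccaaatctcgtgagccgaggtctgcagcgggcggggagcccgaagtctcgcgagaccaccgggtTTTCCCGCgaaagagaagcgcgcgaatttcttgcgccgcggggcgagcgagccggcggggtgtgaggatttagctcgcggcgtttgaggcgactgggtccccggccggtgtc
Cdca7 (chr2:72475969-72476268, + strand): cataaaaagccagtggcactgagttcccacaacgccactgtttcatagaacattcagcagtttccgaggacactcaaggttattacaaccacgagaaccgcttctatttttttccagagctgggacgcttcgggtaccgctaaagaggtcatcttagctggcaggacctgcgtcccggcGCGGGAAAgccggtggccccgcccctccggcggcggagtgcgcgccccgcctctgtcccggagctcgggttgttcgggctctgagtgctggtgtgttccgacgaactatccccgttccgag
Cdc6 (chr11:98907901-98908200, + strand): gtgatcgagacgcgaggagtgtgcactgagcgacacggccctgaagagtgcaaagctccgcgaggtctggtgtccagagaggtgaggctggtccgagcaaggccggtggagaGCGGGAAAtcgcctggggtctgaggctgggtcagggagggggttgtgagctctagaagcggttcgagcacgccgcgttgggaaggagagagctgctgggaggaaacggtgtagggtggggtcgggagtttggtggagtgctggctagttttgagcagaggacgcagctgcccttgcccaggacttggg
Clspn (chr4:126556730-126557029, + strand): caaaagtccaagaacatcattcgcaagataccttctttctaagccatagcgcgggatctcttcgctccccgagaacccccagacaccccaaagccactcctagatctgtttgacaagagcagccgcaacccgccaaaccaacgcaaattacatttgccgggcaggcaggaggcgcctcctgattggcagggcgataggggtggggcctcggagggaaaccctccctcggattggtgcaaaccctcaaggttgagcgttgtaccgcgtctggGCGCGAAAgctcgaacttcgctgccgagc

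Of 29103 barcodes, 28971 were kept (200 to 9000 genes and at most 10% mitochondrial UMIs, where a UMI is a molecular identifier that counts 1 captured RNA). Lots held 8553 to 10707 kept cells with medians of 8949 to 11595 UMIs per cell, and pairs of lots shared 19 to 30 barcode sequences. Clustering with the members, other cell cycle genes and histone genes left out of the variable genes gave 24 clusters, which were named as X-like from marker lists. Germ-like cells (747, 337 and 385 in lots 26, 29 and 30) were led by Dppa5a, Dazl and Stra8, pre-granulosa-like cells numbered 4200, 3502 and 4807, stromal-like cells 2007, 1607 and 2259, and epithelial-like cells 1404, 1749 and 2186. In lot 30, 2455 of the pre-granulosa-like cells fell in a cluster led by the heat shock genes Hspa1a and Hspa1b, which held 76 cells of lot 26 and 116 of lot 29. Sertoli-like cells numbered 89, 285 and 16. The paper treats cells of this type, which have a testis identity, as contaminants of the lots and left them out. Clusters that met no marker rule (2712 cells) stayed unnamed.

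The summed level of the 38 genes was highest in germ-like cells and, among the 4 named classes with the most cells, lowest in pre-granulosa-like cells. Levels in CPM (UMIs of a gene scaled to a common total per class), summed over the members, were 5541, 5762 and 5438 in germ-like cells of lots 26, 29 and 30 (5581 ± 166, mean ± SD, n = 3 lots). Pre-granulosa-like cells had 1685, 1751 and 1719 CPM (1718 ± 32.7). No lot of either class came near the other. Epithelial-like cells (3473 ± 205 CPM), mesonephric-tubule-like cells (3430.1 ± 343), stromal-like cells (3064 ± 33.2), a cluster of 135 cells (2839.7 ± 340.0), endothelial-like cells (2572 ± 208) and Sertoli-like cells (2441 ± 381) lay between. Neighbours in this order had overlapping lots, whereas all epithelial-like lots lay above all stromal-like lots. The cluster of 135 cells had passed the macrophage list but is left without a cell type, since C1qa, C1qb and C1qc, known from macrophages, stood beside S100a8, S100a9, Camp and Ngp, known from neutrophils, among its leading genes. Neural-crest-like cells were few (14, 31 and 9) and had 3231, 1549 and 3609 CPM, of which the lot 29 value lay below every pre-granulosa-like lot. Red-blood-cell-like cells held 216, 146 and 713 CPM.

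**Figure D1:**
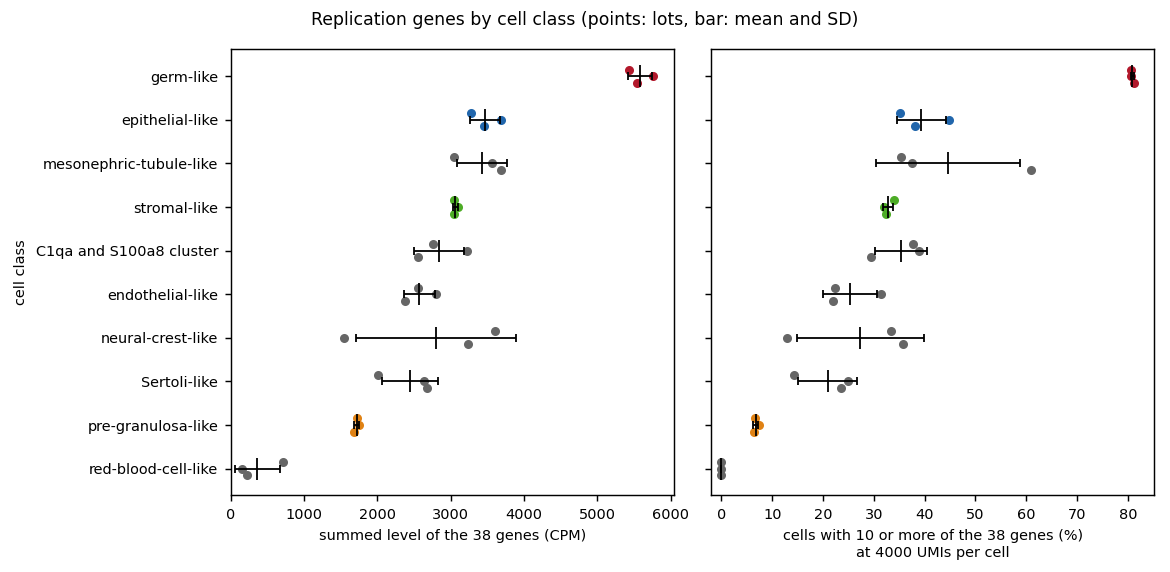
Left, summed CPM of the 38 genes in 10 cell classes. Right, percent of cells with 10 or more of the 38 genes after thinning to 4000 UMIs per cell. Points are the 3 lots and bars the mean with its SD; the germ-like lots (5438 to 5762 CPM) lie above all others.

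Hells carried a large part of the germ-like sum. It supplied 23.3% ± 1.33 (SD, n = 3 lots) of the members' UMIs in germ-like cells and 5.18% to 5.55% in the 3 large somatic classes. Without Hells the sum was 4278 ± 108 CPM in germ-like cells, 3289 ± 186 in epithelial-like, 2906 ± 28.96 in stromal-like and 1623 ± 33.4 in pre-granulosa-like cells, which left the order as it was. A summed level per class cannot tell fewer replicating cells from less RNA per replicating cell.

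The share of cells with 5 or more members separated the classes poorly at full depth and better at equal depth. As sequenced, 100% of germ-like cells, 98.4 ± 0.513% of epithelial-like, 91.5 ± 3.42% of pre-granulosa-like and 91.1 ± 3.24% of stromal-like cells had 5 or more members with a UMI (mean ± SD, n = 3 lots). Depth differed among them, with median UMIs of 18134 to 23950 in germ-like and 8395 to 11334 in pre-granulosa-like lots. After thinning every cell to 4000 UMIs the shares were 99.9 ± 0.149%, 86.0 ± 0.816%, 54.7 ± 1.08% and 74.6 ± 1.53% in the same order. Thinning left out 8 germ-like, 18 epithelial-like, 115 stromal-like and 49 pre-granulosa-like cells for having fewer UMIs. The red-blood-cell-like cells were the class with the fewest members detected. There 5, 5.56 and 47.6% of cells passed as sequenced (median UMIs 7490.5, 10422 and 11489) and 0, 0 and 4.76% after thinning. Embryonic globin genes (Hbb-y, Hba-x) were among their leading genes, and such cells still have a nucleus at this age, so these shares are not a measure of free RNA alone, which was not measured.

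Counting 10 or more members at 4000 UMIs widened the gap. Of germ-like cells 81.2, 80.7 and 80.6% passed in lots 26, 29 and 30, against 38.1, 44.8 and 35.2% of epithelial-like and 32.3, 32.0 and 33.9% of stromal-like cells. Pre-granulosa-like cells passed in 6.39, 7.33 and 6.63%, and no red-blood-cell-like cell did (0 of 19, 34 and 21 cells, with exact 95% Clopper-Pearson upper limits of 17.6, 10.3 and 16.1%, which cover counting error only). The median germ-like cell held 13 members in every lot and the median pre-granulosa-like cell 5. Shares and sums are descriptions with no test.

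**Figure D2:**
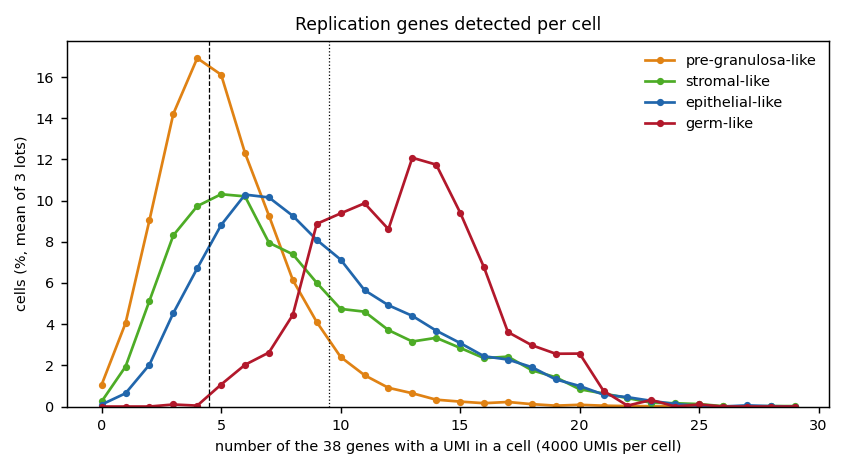
Number of the 38 genes with a UMI per cell (x axis, cells thinned to 4000 UMIs) against the percent of cells (y axis, mean of 3 lots) in 4 classes; vertical lines stand just below 5 and 10 genes. The germ-like distribution is centred near 13 genes and the pre-granulosa-like one near 5.

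Within the pre-granulosa-like class the clusters ranged widely. A cluster of 464 cells led by the mitosis genes Ube2c, Cdkn3 and Nusap1 had 3624, 3948 and 3467 CPM of the members in the 3 lots. The other pre-granulosa-like clusters held 1152 (2947 cells) to 1876 CPM over all lots together. Stromal-like clusters ran from 2116 to 4247 CPM. Epithelial-like clusters ran from 2658 to 4166 CPM, and Aurkb, Ube2c and histone genes were among the leading genes of the highest.

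**Figure D3:**
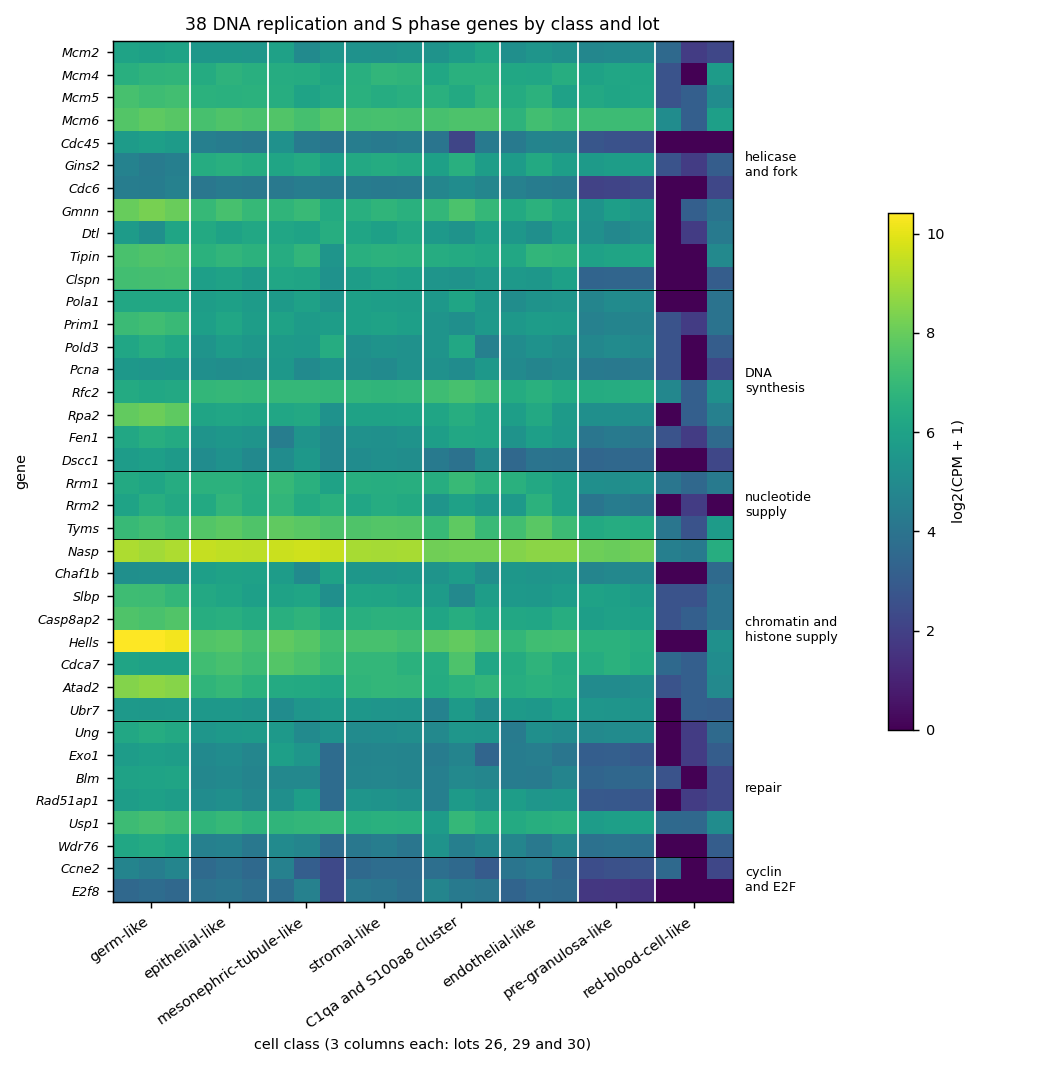
Level of each of the 38 genes (rows, grouped by role) in the cell classes (columns, 3 lots each) as log2(CPM + 1). Hells stands at 1189 to 1365 CPM in germ-like lots and at 88.3 to 202 CPM in the 3 large somatic classes, and Gins2 at 19.1 to 23.4 and 50.8 to 94.9 CPM.

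Germ-like cells were set against the mean of the pre-granulosa-like, stromal-like and epithelial-like classes to ask how cells near meiotic S phase differ from the soma. Of the 38 members, 28 were higher and 4 lower in germ-like cells, and 6 did not pass (edgeR quasi-likelihood test on UMI sums per class and lot, adjusted p under 0.05 over all 13840 genes tested). Over all genes 36.5% were higher and 40.4% lower, so the share of members called higher was above that of genes at large and the share called lower was below it. The median log2 fold change was 0.96 over the members and -0.08 over all genes, and with RLE scaling the median of all genes was 0.04 and that of the members 1.08. Of 34 G2/M genes 29 were higher and 3 lower (median 1.06), so the excess was not particular to replication genes.

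Among genes of the helicase and fork, 8 of 11 were higher and 1 was lower. Clspn, the adaptor that passes the stalled-fork signal to Chk1, stood at 154, 159 and 159 CPM in germ-like cells, at 50.9 to 63.5 in stromal-like and epithelial-like lots and at 9.25 to 9.68 in pre-granulosa-like lots, a log2 fold change of 2.27 ± 0.09 (SE, adjusted p = 2.2e-17). Cdc45, which completes the active helicase with MCM and GINS, had 52.0, 58.2 and 52.1 CPM against 17.6 to 21.7 in stromal-like and epithelial-like and 4.86 to 5.88 in pre-granulosa-like lots (2.05 ± 0.11, adjusted p = 2.3e-14). For both genes every germ-like lot lay above every lot of the 3 somatic classes. Gmnn, the inhibitor of origin licensing, was higher as well (1.63 ± 0.14).

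Gins2, a subunit of the same helicase as Cdc45, went the other way. It had 23.4, 19.1 and 21.7 CPM in germ-like cells, below the 50.8 to 55.3 of pre-granulosa-like and the 76.0 to 94.9 of stromal-like and epithelial-like lots (-1.78 ± 0.13, adjusted p = 2.5e-12). Its exons overlap those of Gse1 on the opposite strand, and exons of Cdc45 likewise overlap those of Ufd1. Reads of such pairs cannot be told apart if counting ignored strand. The MCM subunits differed less, from 0.21 ± 0.14 for Mcm4, which did not pass (adjusted p = 0.18), to 0.79 ± 0.11 for Mcm5.

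In the DNA synthesis group 7 of 8 genes were higher in germ-like cells. Rpa2, of the complex that coats single-stranded DNA, had 238, 268 and 226 CPM there and 34.2 to 71.2 CPM in the lots of the 3 somatic classes (log2 fold change 2.15 ± 0.12, adjusted p = 8.8e-15). Primase (Prim1, 1.60 ± 0.09) and the flap nuclease Fen1 (1.43 ± 0.10) were also higher. Only Rfc2 was lower in this group, with 72.8 to 81.4 CPM in germ-like lots and 84.4 to 122 in somatic lots (-0.50 ± 0.09, adjusted p = 2.0e-05), and its exons overlap those of Lat2 on the opposite strand.

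Nucleotide supply genes differed little. Rrm2, the regulated subunit of ribonucleotide reductase, was higher (log2 fold change 0.57 ± 0.16, adjusted p = 0.0030), while Rrm1 (0.15 ± 0.11, adjusted p = 0.23) and thymidylate synthase Tyms (-0.15 ± 0.15, adjusted p = 0.38) did not pass. Tyms had 128, 150.2 and 128 CPM in germ-like cells, 78.3 to 85.3 in pre-granulosa-like and 186 to 220.2 in stromal-like and epithelial-like lots.

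Chromatin genes held the largest excess and a shortfall. Hells, an SNF2-family remodeller needed for DNA methylation, had 1354, 1365 and 1189 CPM in germ-like cells, 88.3 to 99.0 in pre-granulosa-like, 147 to 165 in stromal-like and 161 to 202 in epithelial-like lots (log2 fold change 3.17 ± 0.15, adjusted p = 2.0e-16). Cdca7, known as the partner that activates Hells, had 66.4, 60.9 and 62.0 CPM in germ-like cells and 83.2 to 165 CPM in the lots of the 3 somatic classes (-0.92 ± 0.16, adjusted p = 9.2e-06). Germ-like and somatic lots did not overlap for either gene, with Hells above and Cdca7 below. Atad2, a bromodomain ATPase, was higher (359, 403 and 372 CPM, 2.30 ± 0.10, adjusted p = 7.7e-17), as were Casp8ap2 (1.15 ± 0.09) and Slbp (1.04 ± 0.10), which serve histone gene expression. Chaf1b, of the chaperone that deposits histones behind the fork, was lower by a small margin (-0.25 ± 0.10, adjusted p = 0.027), a call lost with RLE scaling, without the low-count filter, at both other clustering resolutions, and without lot 26 or without lot 30. The histone chaperone Nasp (0.19 ± 0.11) and Ubr7 (0.10 ± 0.10) did not pass.

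All 6 repair genes were higher in germ-like cells. Wdr76 had 72.4, 82.6 and 69.5 CPM against 13.5 to 23.9 in somatic lots (log2 fold change 2.07 ± 0.11, adjusted p = 3.9e-15). Blm, a helicase that resolves recombination intermediates (1.72 ± 0.09), the exonuclease Exo1 (1.59 ± 0.12) and Rad51ap1 (1.45 ± 0.12) followed, and Usp1 (0.73 ± 0.12) differed least. Cyclin Ccne2 (1.402 ± 0.13) and the repressor E2f8 (0.46 ± 0.14) were higher too.

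Of the other replication genes 34 of 40 were higher and 1 was lower. The polymerase Pole (log2 fold change 2.42 ± 0.10) and the histone chaperone Asf1b (2.40 ± 0.12) were among the higher ones, and Pole2 was lower (-0.56 ± 0.11). The maintenance methyltransferase Dnmt1 was higher (199, 208 and 191 CPM, 1.27 ± 0.11, adjusted p = 9.5e-11), and Uhrf1, which brings it to newly copied DNA, did not pass (41.6, 31.4 and 41.0 CPM, -0.17 ± 0.09, adjusted p = 0.091). Mki67 (0.91 ± 0.14) and Top2a (1.16 ± 0.11) were higher and Cdk1 did not pass (0.07 ± 0.13). A list of 10 genes joined cell cycle inhibitors with the D cyclins Ccnd1, Ccnd2 and Ccnd3, which drive the cycle. Of these 10 genes 5 were higher and 5 lower (median log2 fold change 0.14, from -2.86 to 7.57). Cdkn1b (-2.16 ± 0.16) and Cdkn1c (-2.30 ± 0.25) were among the lower, and Cdkn2b (3.03 ± 0.35) and Cdkn2d (1.58 ± 0.10), named after their values were seen, among the higher. Meiosis genes marked the class, with Stra8 at 752, 568 and 686 CPM and the cohesin Rec8 at 169, 143 and 169 CPM, and 1.25 to 5.14 CPM of Stra8 in the large somatic classes.

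Germ-like and somatic cells were next compared among cells that passed the same limit on other replication genes. A cell was taken as replicating when 8 or more of the 40 other genes had a UMI at 4000 UMIs, the 80th percentile over 23539 somatic cells. This held for 92.7% ± 1.06 of germ-like, 44.6% ± 3.11 of epithelial-like, 34.2% ± 0.876 of stromal-like cells and 8.74% ± 0.532 of the pre-granulosa-like class (SD, n = 3 lots). A second limit, fewer than 4 of a list of G2/M genes, was meant to single out S phase (S-selected cells). However, 96.8% ± 1.27 of germ-like cells were at or above it, and 32, 5 and 8 germ-like cells were S-selected in lots 26, 29 and 30. The G2/M limit was reached by fewer somatic cells (epithelial-like 45.8% ± 1.75, stromal-like 35.9% ± 0.844, pre-granulosa-like 4.37% ± 0.434). The comparison without the G2/M limit was therefore added after the data were seen, with 689, 315 and 350 germ-like cells. Its replication limit kept most germ-like cells but only a minority of each somatic class. Germ-like and somatic cells past it were thus not matched in replication or phase, and the part of this in the differences was not tested.

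Among cells past the replication limit, 21 members were higher in germ-like cells, 9 were lower and 8 did not pass, where 35.1% of all 11560 genes were higher and 35.4% lower. The median log2 fold change was 0.38 over the members and -0.02 over all genes. Of 34 G2/M genes 21 were higher and 5 lower, with the same median of 0.38. Hells (2.53 ± 0.08, adjusted p = 1.1e-16), Wdr76 (1.62 ± 0.11), Rpa2 (1.504 ± 0.09), Atad2 (1.396 ± 0.09), Clspn (1.17 ± 0.10) and Cdc45 (0.99 ± 0.13) had the largest excess. Hells stood at 1362, 1385 and 1227 CPM in these germ-like cells and at 168 to 280.0 CPM in somatic cells past the same limit, with no overlap.

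All 3 nucleotide supply genes were lower in germ-like cells past this limit. Tyms had 131, 147 and 123 CPM in germ-like cells, 314 to 355 in stromal-like, 249 to 306 in epithelial-like and 156 to 209 in pre-granulosa-like cells (log2 fold change -0.90 ± 0.12, adjusted p = 7.8e-07). No germ-like lot reached a somatic one for Tyms. Rrm2 (-0.64 ± 0.14, adjusted p = 2.8e-04) and Rrm1 (-0.48 ± 0.10, adjusted p = 1.6e-04) were lower than the somatic mean, but their germ-like lots (64.3 to 85.7 and 69.8 to 80 CPM) did not lie below the pre-granulosa-like ones (53.2 to 67.5 and 61.9 to 77.2 CPM).

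Members of other roles were lower as well. Gins2 (26.5, 24.6 and 16.4 CPM in germ-like and 82.1 to 135 in somatic lots, -2.27 ± 0.15, adjusted p = 1.9e-11) and Cdca7 (-1.23 ± 0.11, adjusted p = 2.0e-09) had the largest shortfall. Rfc2 (-0.90 ± 0.10), Chaf1b (-0.70 ± 0.11), Dtl (-0.66 ± 0.14), which marks the licensing factor Cdt1 for destruction, and Nasp (-0.26 ± 0.08) followed. All 6 repair genes were higher here too, the least being Usp1 (0.23 ± 0.10).

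Of the other 40 genes, which chose the cells, 23 were higher and 11 lower, and these are given as a description. Thymidine kinase Tk1 was the lowest of them (-1.18 ± 0.11), and Orc1 (1.47 ± 0.15) and Brca2 (1.45 ± 0.10) were the highest. Cdk1 was lower (-0.75 ± 0.11, adjusted p = 1.8e-06), with 92.5, 77.0 and 75 CPM in germ-like cells and 168 to 190.0 CPM in stromal-like and epithelial-like cells, and Mki67 did not pass (0.13 ± 0.11, adjusted p = 0.31).

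**Figure D4:**
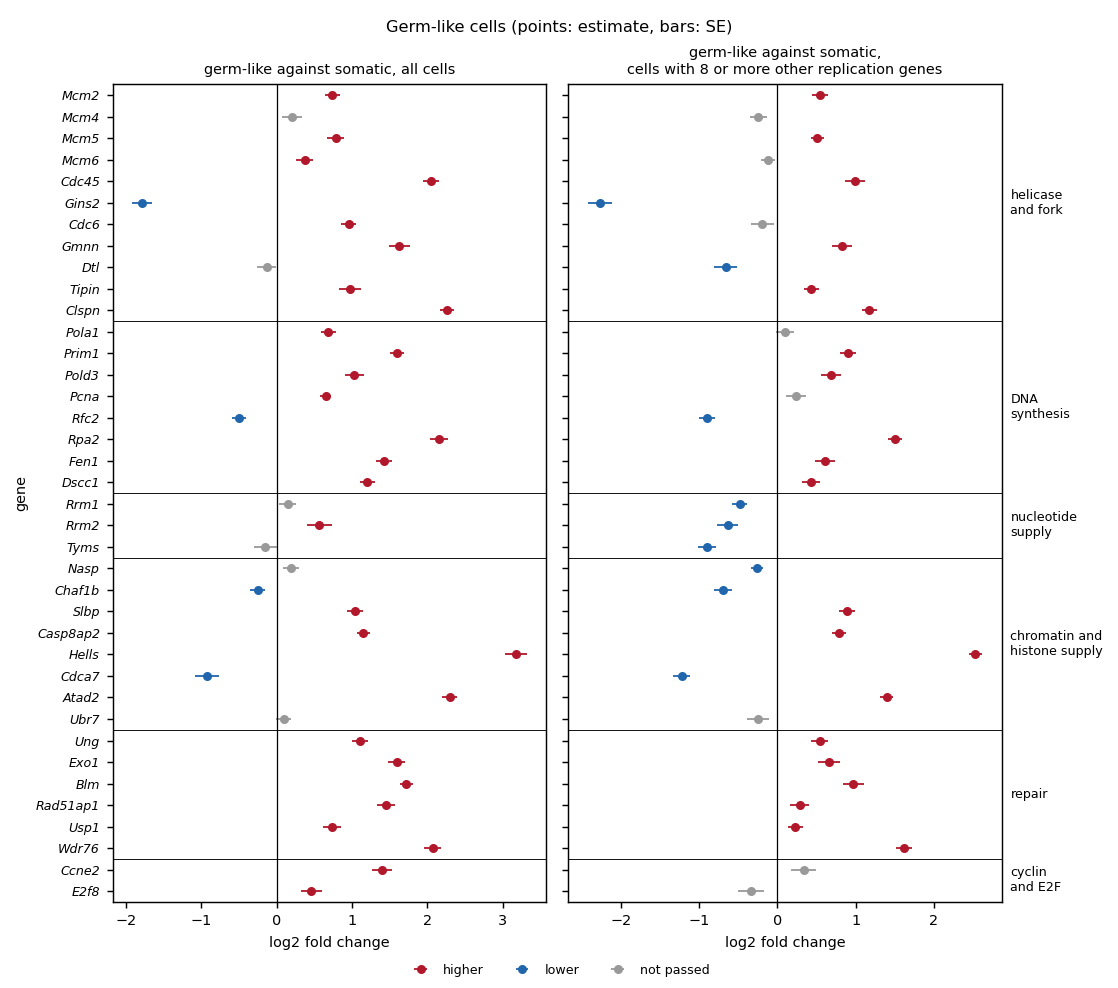
Log2 fold change of each of the 38 genes (points, with SE as bars) in germ-like against somatic cells, over all cells (left) and over cells with 8 or more other replication genes (right), grouped by role and coloured by whether the test was passed as higher or lower. Hells has the largest value over all cells (3.17) and over cells past the replication limit (2.53).

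The S-selected cells gave a thinner version of the same comparison. With 32, 5 and 8 germ-like cells, 4 members were higher (5.44% of 9557 genes were), 6 were lower (10.6% were) and 28 did not pass. Hells (log2 fold change 2.04 ± 0.16, adjusted p = 1.9e-15), Rpa2 (1.66 ± 0.24), Atad2 (1.36 ± 0.24) and Clspn (1.27 ± 0.35) were higher. Cdca7 (-1.91 ± 0.37), Gins2 (-2.25 ± 0.48), Rfc2 (-1.19 ± 0.34), Mcm4 (-1.11 ± 0.36), Mcm6 (-0.93 ± 0.25) and Chaf1b were lower. Chaf1b rested on 2 UMIs in the germ-like sums and Gins2 on 5, so no fold is given for Chaf1b. Cdca7 rested on 10, Rfc2 on 13 and Mcm4 on 15. Mcm4 stood at 70.3, 0 and 187.5 CPM in the germ-like lots, the last within the range of the somatic lots (103 to 209 CPM). Without the G2/M limit Mcm4 (-0.24 ± 0.11, adjusted p = 0.058) and Mcm6 (-0.12 ± 0.09, adjusted p = 0.21) did not pass. The median of all genes was itself -0.35 here, and without lot 26 the counts were 2 higher and 2 lower.

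Pre-granulosa-like cells were then set against the mean of the stromal-like and epithelial-like classes. None of the 38 members was higher (26.8% of all genes were), 34 were lower (22.4% of all genes were) and 4 did not pass. DESeq2 also called 0 higher, and 36 lower, where 27.1% and 28.1% of all genes were. Ubr7 (0.04 ± 0.10, adjusted p = 0.79) was the single member with a positive value. The median log2 fold change was -0.86 over the members and 0.03 over all genes.

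The differences ran from steep to slight. E2f8 was at 1.88 to 2.26 CPM in pre-granulosa-like lots and at 12.8 to 16.8 CPM in stromal-like and epithelial-like lots (log2 fold change -2.71 ± 0.16, adjusted p = 9.1e-13). Clspn (-2.52 ± 0.12), Rad51ap1 (-2.41 ± 0.15), the origin loader Cdc6 (-2.31 ± 0.11, 3.12 to 3.88 against 16.8 to 19.7 CPM), Rrm2 (-2.20 ± 0.20) and Cdc45 (-1.80 ± 0.14) followed. For each of these genes all pre-granulosa-like lots lay below all lots of the other classes compared. The MCM subunits stood at the other end, with Mcm4 (-0.48 ± 0.15), Mcm2 (-0.40 ± 0.11) and Mcm5 (-0.31 ± 0.12, adjusted p = 0.035) lower and Mcm6 not passing (-0.19 ± 0.12, adjusted p = 0.21). Mcm6 had 139, 140.5 and 139 CPM in pre-granulosa-like lots and 162 to 188 in stromal-like and epithelial-like lots, which did not overlap although the test was not passed. The histone mRNA binding protein Slbp (-0.11 ± 0.12) and the uracil glycosylase Ung (-0.26 ± 0.12, adjusted p = 0.078) did not pass either.

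All 3 nucleotide supply genes and all 8 DNA synthesis genes were lower, the latter from -1.63 ± 0.12 for Dscc1 to -0.33 ± 0.09 for Rfc2. Hells (-0.75 ± 0.18) and Cdca7 (-0.45 ± 0.16) were both lower in this comparison. Outside the set, 35 of 40 other replication genes were lower and 0 higher, led by Tk1 (-2.51 ± 0.13) and Mcm10 (-2.23 ± 0.12). Mki67 (-2.73 ± 0.18), Top2a (-2.51 ± 0.14), Cdk1 (-2.05 ± 0.15), Uhrf1 (-1.29 ± 0.10) and Dnmt1 (-0.94 ± 0.13) were lower. The arrest gene Cdkn1b had 170.0, 155 and 149.7 CPM in pre-granulosa-like lots and 34.2 to 45.6 CPM in stromal-like and epithelial-like lots (2.12 ± 0.13, adjusted p = 4.8e-13). Cdkn1c (1.24 ± 0.22) and the cohesin Rec8 (1.63 ± 0.18) were higher too. Their lists had no common direction. Of the 10 inhibitors and D cyclins 3 were higher and 3 lower (median -0.01, from -2.26 to 2.12). That list mixes inhibitors with drivers of the cycle, so it gives no direction for arrest genes alone. Of 18 meiosis genes 3 were higher and 4 lower (median 0.07).

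Epithelial-like and stromal-like cells differed little in these genes. Of the members, 5 were higher in epithelial-like cells (14.9% of all genes were), 0 were lower (17.0% of all genes were) and 33 did not pass. At an unadjusted p under 0.05 there were 9 members, and 5584 of all 13840 genes. DESeq2 called 7 members higher and 0 lower, where 15.9% and 23.4% of all genes were. The 5 were Ung (log2 fold change 0.59 ± 0.14, adjusted p = 0.0019), Gmnn (0.52 ± 0.19, adjusted p = 0.035), Cdca7 (0.51 ± 0.18, adjusted p = 0.031), Chaf1b (0.50 ± 0.12, adjusted p = 0.0012) and Nasp (0.49 ± 0.13, adjusted p = 0.0062). Nasp had 725, 692 and 670.4 CPM in epithelial-like and 535, 511 and 525 CPM in stromal-like lots, with no overlap. With the lot as a block, 14 members were higher and 1 lower, where 25.5% and 25.4% of all genes were. Leaving out lot 26 or lot 30 left 2 higher (9.37% and 8.34% of all genes). Dut (0.91 ± 0.22), Cdt1 (0.79 ± 0.11) and Dna2 (0.76 ± 0.15) led the 12 of 40 other replication genes that were higher, and 1 was lower.

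To see which members mark replicating somatic cells, S-selected cells were set against unselected cells, which were below both limits, within the 3 large somatic classes. S-selected cells made up 17.2% ± 1.018 of epithelial-like, 14.4% ± 0.892 of stromal-like cells and 6.75% ± 0.326 of the pre-granulosa-like class (SD, n = 3 lots), and unselected cells 37.0% ± 2.76, 49.7% ± 0.636 and 88.9% ± 0.746. All 38 members were higher in S-selected cells by edgeR and by DESeq2 (5.37% of 11544 genes were higher by edgeR) and 0 were lower (1.72% were). The median log2 fold change was 1.195 over the members and -0.01 over all genes. The cells were chosen on other replication genes counted in the same cells, and the part of that choice in the direction was not tested.

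E2f8 differed most (0.895, 0.823 and 0.7998 CPM in unselected and 8.45, 6.98 and 6.82 CPM in S-selected cells of lots 26, 29 and 30, log2 fold change 3.13 ± 0.33, adjusted p = 6.8e-09). Cdc6 (4.21, 2.87 and 5.39 and 31.6, 35.5 and 32.5 CPM, 2.91 ± 0.17), Rad51ap1 (2.69 ± 0.20), Clspn (2.68 ± 0.18), Cdc45 (2.37 ± 0.23) and Rrm2 (2.32 ± 0.16) came next. Ubr7 (0.39 ± 0.09, adjusted p = 0.0052), Slbp (0.48 ± 0.08) and Pold3 (0.58 ± 0.10) differed least. The MCM subunits ran from 0.75 ± 0.09 for Mcm2 to 1.04 ± 0.09 for Mcm4.

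The sum of the members differed between states in every class, and its level differed between classes. Unselected cells held 1443 ± 5.63 CPM in the pre-granulosa-like, 1766 ± 17.1 in the stromal-like and 2139.9 ± 79.5 in the epithelial-like class. S-selected cells held 2489 ± 17.5, 4418 ± 118 and 4398 ± 275 CPM, and G2/M-selected cells, at or above the G2/M limit, 3278 ± 338, 3909 ± 97.0 and 3965 ± 143 (SD, n = 3 lots). S-selected pre-granulosa-like lots (2470 to 2504 CPM) lay below those of the other classes (4210 to 4714 CPM). Among all cells past the replication limit, germ-like lots had 5623 to 5737 CPM and somatic lots 2883 to 4924 CPM.

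Members also differed in the state in which they were high. Cells past both limits counted as G2/M-selected. Of epithelial-like cells 44.6% passed the replication limit and 17.2% were S-selected. These shares were 34.2% and 14.4% in stromal-like cells, and 8.74% and 6.75% in pre-granulosa-like cells. The remaining cells past the replication limit were G2/M-selected, so that group is not free of replicating cells. Against G2/M-selected somatic cells, 11 members were higher in S-selected cells (8.53% of all genes were), 10 were lower (7.29% were) and 17 did not pass. Ung had 76.0, 81.3 and 86.6 CPM in S-selected, 23.6, 27.0 and 25.3 in G2/M-selected and 31.6, 35.5 and 34.0 in unselected cells (log2 fold change of S against G2/M 1.75 ± 0.11, adjusted p = 5.3e-15). Its G2/M-selected lots lay below even the unselected ones. Cdc6 (1.07 ± 0.15), Mcm4 (0.98 ± 0.09), Mcm6 (0.92 ± 0.07), Mcm2 (0.74 ± 0.10) and Cdca7 (0.65 ± 0.09) were higher in S-selected cells as well.

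All 3 nucleotide supply genes were lower in S-selected than in G2/M-selected cells, with Rrm1 at 73.8 to 76.9 against 127 to 133 CPM (-0.76 ± 0.09, adjusted p = 1.0e-07), Rrm2 (-0.74 ± 0.14) and Tyms (-0.61 ± 0.10). E2f8 had 22.5 to 26.3 CPM in G2/M-selected cells, above its S-selected lots (-1.64 ± 0.21, adjusted p = 3.1e-07). Blm (-0.74 ± 0.14) and Rad51ap1 (-0.69 ± 0.16) shared this direction. None of the 8 DNA synthesis genes passed in edgeR's test, and 1 had an unadjusted p under 0.05, as did 3210 of all 11544 genes. Among other genes, Ccne1 (1.18 ± 0.13), Cdt1 (1.13 ± 0.11) and Mcm3 (1.13 ± 0.07) were higher in S-selected cells. The split turned on the limits, since with limits at the 90th percentile 33 members were higher and 0 lower (6.43% and 6.07% of all genes), and E2f8, Blm, Rrm2, Rad51ap1 and Tyms had positive values.

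**Figure D5:**
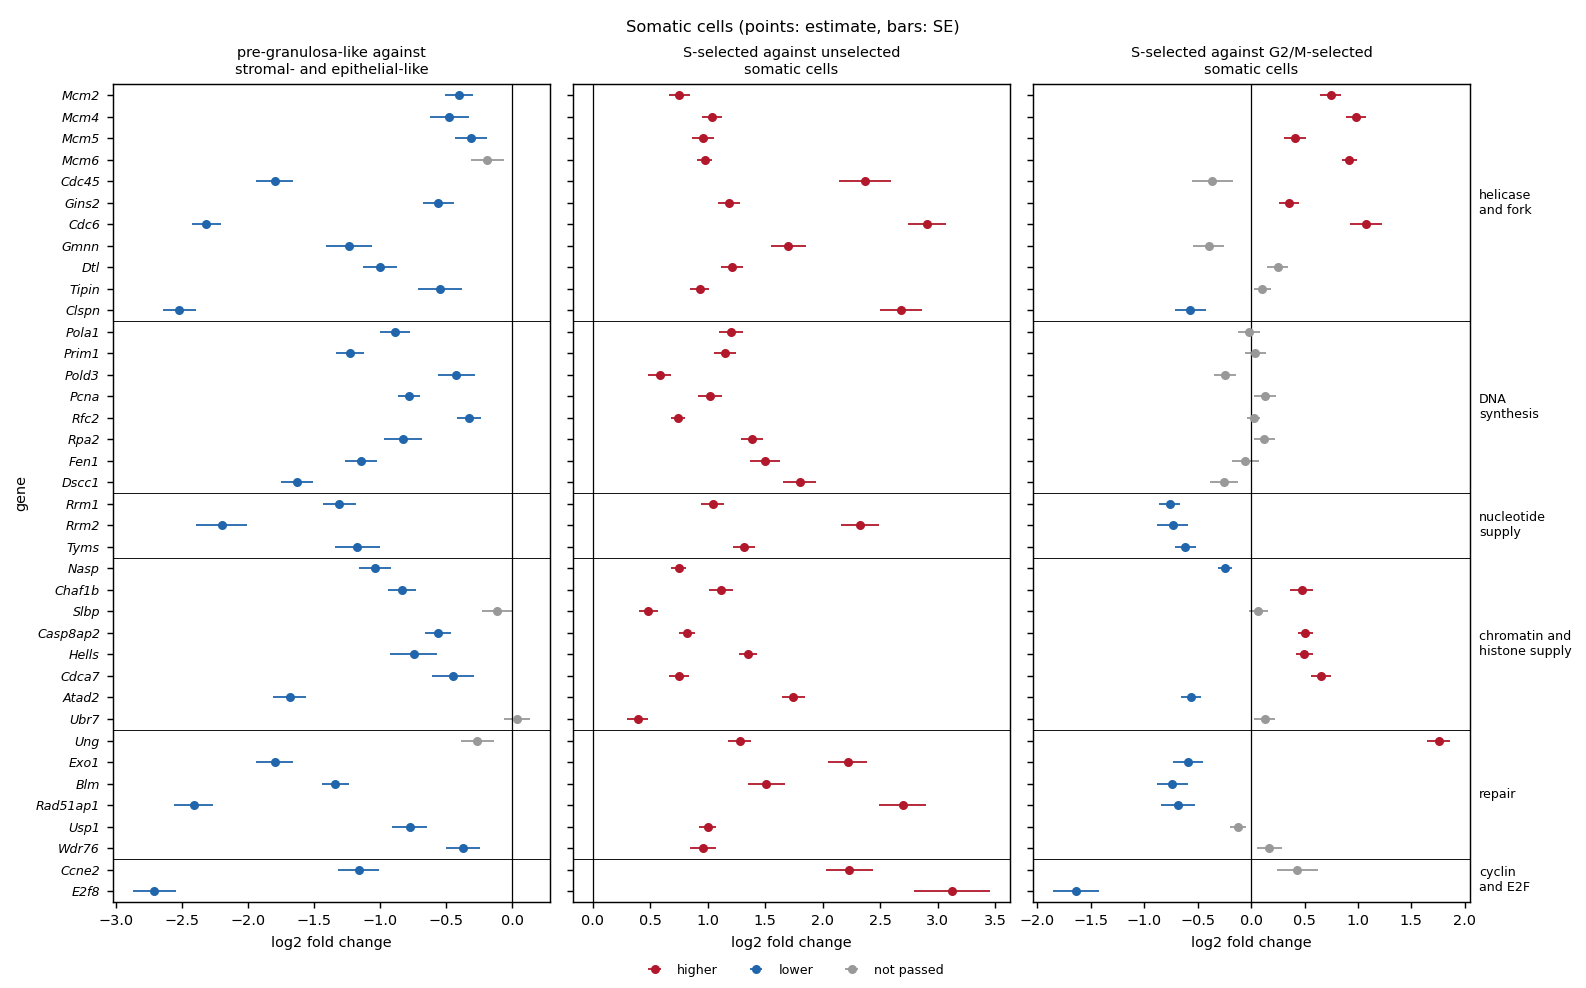
Log2 fold change of the 38 genes (points, with SE as bars) in pre-granulosa-like against stromal-like and epithelial-like cells (left), S-selected against unselected (middle) and S-selected against G2/M-selected somatic cells (right), grouped by role and coloured by whether the test was passed as higher or lower. All 38 genes are higher in S-selected than in unselected cells (0.39 to 3.13), and 34 are lower in pre-granulosa-like than in stromal-like and epithelial-like cells.

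Germ-like cells were last split by Stra8, the gene switched on by retinoic acid at meiotic entry, with each cell thinned to 8000 UMIs. Stra8 was detected in 599 of 707, 260 of 327 and 328 of 374 germ-like cells of lots 26, 29 and 30 (84.7%, 79.5% and 87.7%). Of the 38 members, 2 were higher in cells with Stra8 (4.38% of 9383 genes were), 3 were lower (4.05% were) and 33 did not pass. An unadjusted p under 0.05 was found for 15 members and for 2112 of the 9383 genes. With the lot as a block, 7 were higher and 8 lower, where 9.45% and 9.88% of all genes were. Without lot 26, and likewise without lot 30, 0 were higher and 1 was lower.

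Ccne2, a cyclin that starts S phase, had 33.0, 24.0 and 29.3 CPM with Stra8 and 17.4, 13.1 and 8.15 CPM without (log2 fold change 1.03 ± 0.29, adjusted p = 0.032), from 25 UMIs in all in cells without Stra8. Casp8ap2 stood at 202, 188 and 212 CPM with and 129.6, 129 and 128 CPM without Stra8 (0.61 ± 0.14, adjusted p = 0.0090). Ung had 65.5, 77.9 and 69.0 CPM with and 122, 134 and 133 CPM without Stra8 (-0.90 ± 0.15, adjusted p = 9.8e-04). Cdca7 (-0.58 ± 0.15, adjusted p = 0.023) and Tyms (-0.50 ± 0.14, adjusted p = 0.031) were lower as well. For these 5 genes the lots with and without Stra8 did not overlap. The genes were picked for passing the test on the same sums, so this adds no support. Overlap was not counted over all genes. Hells did not pass (1433, 1436 and 1248 CPM with and 1022, 1103 and 875 CPM without, 0.42 ± 0.14, adjusted p = 0.074).

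Outside the set, Rec8 (1.91 ± 0.16) and Uhrf1 (1.30 ± 0.25, adjusted p = 0.0029) were higher with Stra8, and Mki67 (-0.67 ± 0.16) was lower. Of the other replication genes, 0 of 40 were higher and 4 were lower by edgeR, among them Mcm10 (-0.95 ± 0.23). An unadjusted p under 0.05 was found for 8 of them and for 2112 of all 9383 genes. Whether cells without a Stra8 UMI lacked the RNA was not tested.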

How the data were processed

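Single-cell RNA libraries of 3 lots of E12.5 ovarian somatic cells were analysed from the count tables that the authors deposited, which hold raw UMI counts per gene and cell. The submitters' processing notes name UMI-tools, STAR 2.7, Subread featureCounts 2.0.1 and Seurat, with GRCm38. Whether counting used strand is not given in the sources used here, and 9 members have exons that overlap a gene on the opposite strand. They are Cdc45, Gins2, Rfc2, Fen1, Dscc1, Slbp, Ubr7, Ccne2 and E2f8. Lot totals ran from 87494974 to 141920060 UMIs. No columns of other series were present.

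Cells with 200 to 9000 genes and at most 10% mt- UMIs were kept. Seurat 5.3.0 (R 4.3.3) clustered the lots on 2000 variable genes, 50 components and resolution 0.8, and 238 genes, among them the 38 members and 67 histone genes, were held out of the variable genes. Clusters were named from marker lists (score of at least 1, lead of 0.25, 3 markers raised by 0.5). Doublets were kept in the results as reported, and Scrublet (scanpy 1.11.5) called 4.06% to 5.93% of cells.

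UMIs were summed per class and lot for named classes with 10 or more cells in every lot, Sertoli-like cells left out (8 classes, 24 sums). The sums were tested with edgeR 4.0.16 (TMM, quasi-likelihood, Benjamini-Hochberg over all genes tested, threshold 0.05). Lots are pools of animals, and the 3 lots are the replicates. The main fits had no lot term, which left the pairing of classes within a lot out of the tests. Their p-values rest on the spread of all sums in a fit around the fitted values. Cell states were compared on sums per state, class and lot with terms for state and class. There several sums of 1 lot counted separately, and differences between classes in the effect of state added to the spread. Classes of 1 lot come from 1 pool: over 1640 genes and 84 same-lot pairs of classes, the median correlation of deviations from their class means was 0.467 (0.0207 to 0.928, 79 over 0.1). Each SE was derived from the test, as the absolute log2 fold change divided by the square root of its F statistic. Shares and cell states used cells thinned to 4000 UMIs, and the Stra8 comparison 8000. Tested on simulated data with 200 changed genes, the fit recovered 56.7%, 94% and 95.5% of genes changed by 1.5, 2 and 4 times for germ-like against somatic cells (12881 genes) and 22.4%, 70.1% and 92.4% for the Stra8 comparison (9146 genes). Of the calls, 3.53% and 3.91% were false. The simulated sums were drawn independently, with no lot effect and the same gene proportions in every group apart from the changed genes. These rates therefore do not cover lots shared by classes or the many genes that differ between real classes. Alternatives were RLE scaling, DESeq2 1.42.0, no low-count filter, the lot as a block, each lot left out, other resolutions, depths and limits, and doublets removed.

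Members and lists were chosen with earlier results of these data known. In each comparison up to 6 members per direction were named by size of change among those that passed, with Mki67, Top2a, Cdk1, Uhrf1, Dnmt1, Cdkn1b, Cdkn1c, Stra8, Rec8 and up to 3 other replication genes; further members were named to describe their role group, after their values were seen. Values of some genes are not reported here.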

Additional observations from a re-analysis of the deposited data

How the results depend on the processing

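With the lot as a replicate block, 14 members were higher and 1 lower in epithelial-like against stromal-like cells, and 7 higher and 8 lower in germ-like cells with Stra8; the block moved no other count by over 1.5 times. Leaving out 1 lot at a time gave from 2 to 5 higher for epithelial-like cells, 2 to 6 higher and 2 to 5 lower for S-selected germ-like cells, and 0 to 3 higher and 1 to 3 lower with Stra8. Removing doublets, or leaving out clusters led by genes of another list (chosen after seeing the data), gave 1 member lower in epithelial-like cells. For S-selected germ-like cells, limits at the 70th percentile gave 1 higher and 2 lower (0.51% and 4.72% of all genes), at the 90th percentile 15 and 12 (33% and 32.6%, near the members' share), thinning to 2000 UMIs 7 and 3 (4.27% and 13.2%), and no G2/M limit (chosen after seeing the data) 21 higher (35.1%); Atad2 had -0.0165 (log2) at the 70th percentile. DESeq2 called 1 member higher with Stra8, and thinning to 4000 UMIs left 0. For S-selected against G2/M-selected cells the 70th percentile gave 7 higher and the 90th 33 higher and 0 lower, where E2f8 (0.22), Blm (0.0175), Rrm2 (1.003), Rad51ap1 (0.85) and Tyms (0.37) turned positive. Summed CPM moved to 5799.55 in germ-like and 3201.36 in stromal-like cells without doublets, 3314.38 in stromal-like cells without clusters led by another list, and 1598.46 (resolution 0.4) and 1599.36 (held-out genes put back) in pre-granulosa-like cells. The share of cells with 5 or more members became 99.6% (10 or more members) and 99.9% (4000 UMIs) in germ-like, 52.9% and 54.7% in pre-granulosa-like, 66.4% and 74.6% in stromal-like, and 87.3% and 86.0% in epithelial-like cells. Of the values for single named genes under alternatives, 670 kept direction and side of the threshold, 52 lost the call and 6 reversed. The causes were not tested. Members with few UMIs in the 32, 5 and 8 S-selected germ-like cells limit that comparison.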
